A study of Homo sapiens with 6 samples.

Results

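The probesets described here fell relative to the rest of their own gene in WI38 cells that had received either of 2 antisense oligonucleotides against MALAT1. An exon array reads a gene through many probesets, each a small group of probes for a stretch of an exon, so that a stretch can be compared with the whole. For each probeset the change of the group mean from the Ctr mean was taken, and the median of that change over all probesets of the gene was subtracted. The difference, called Dev, is on the log2 scale. A probeset was kept when its Dev was -1 or lower with both AS1 and AS2, its Ctr mean was 6 or higher, and the median Ctr mean over its gene was 6 or higher. Of 232479 probesets on the arrays, 216780 carry 1 gene symbol and 209621 of these lie in the 13890 genes with 5 or more. Of these, 134860 probesets in 10089 genes passed the brightness floors and are called bright below. The rule kept 550 of them (0.408%), in 379 genes. Since the members were chosen on AS1 minus Ctr and AS2 minus Ctr, these contrasts are given as a description and no test over the members is read from them.

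The 6 arrays hold 2 samples with AS1, 2 with AS2 and 2 with Ctr, a control oligonucleotide. WI38 is a human diploid lung fibroblast line with a finite life span, and no label says whether the 2 samples of a group came from separate cultures, so that every p-value measures only the spread between these samples, which may be technical. All cells had been transfected 2 times, 24 h apart, at 100 nM with the lipid Lipofectamine RNAiMAX, the Ctr cells included. In bulk RNA, fewer cells of a type and less RNA per cell cannot be told apart.

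MALAT1 is a long noncoding RNA kept in the nucleus, where it collects in nuclear speckles beside splicing factors of the SR family. Exons are joined in more than one way in most human genes: an exon can be skipped, and transcription can begin or end at other sites, so that one part of a gene is read less than another. A probeset that falls more than its gene, or fails to rise with it, marks such a stretch, but it can also be a probeset that answers weakly or strongly to a given change in RNA. The oligonucleotides were DNA with phosphorothioate links, which pair with the RNA and lead to its cleavage by RNase H. Their sequences are shown because every change below was measured after one of them. The pair of primers that follows is labelled for CENPE, a gene that holds members and whose splicing the study assayed. Which assay the pair served was not settled, nor where the primers lie relative to the probesets of CENPE.

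MALAT1-AS1: gggagttacttgccaacttg
MALAT1-AS2: atggaggtatgacatataat
CENPE-FP: tgctcattgttgcctgaaag
CENPE-RP: tgctccatttcagacacttttt

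The targeted RNA was low on every AS array. The mean over the 11 probesets of MALAT1 was 9.23 and 7.82 with AS1 and 8.19 and 8.13 with AS2, against 12.004 and 11.97 with Ctr. This is a change of -3.46 ± 0.32 with AS1 (limma adjusted p = 5.56e-05) and -3.82 ± 0.32 with AS2 (limma adjusted p = 1.93e-05, SE), and no MALAT1 probeset met the rule. Correlations across probesets lay between 0.978 and 0.987 among the AS arrays and between 0.959 and 0.968 for an AS array with a Ctr array. The median of 11 fibroblast markers was 10.91 to 10.99 with AS1, 10.84 to 10.94 with AS2 and 11.33 to 11.51 with Ctr. It was the value of THY1 on every AS array and of COL6A1 on both Ctr arrays. THY1 itself was 11.38 and 11.61 with Ctr, and COL6A1 11.08 and 11.22 with AS1 and 10.94 and 11.06 with AS2. FN1 did not fall in this way, at 12.17 and 12.19 with AS1 and 12.04 and 12.29 with AS2, against 11.75 and 12.05 with Ctr. Of the 11 markers, 10 had a median over all arrays of 9 or more. None of 7 epithelial, 6 endothelial and 5 leukocyte markers reached that level (3.40 to 8.44, the highest being TEK), and the medians of the 3 lists lay between 4.88 and 6.24 on every AS array and between 5.01 and 6.05 on both Ctr arrays. The part of the fibroblast marker difference in the results below was not tested.

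Mean Dev of the 550 members, averaged over AS1 and AS2, ran between -4.45 and -1.01 with a median of -1.40. It was -1.5 or lower in 221 members, -2 or lower in 86, -3 or lower in 16 and -4 or lower in 4. The median was -1.40 with AS1 and -1.42 with AS2, and the values with both oligonucleotides lay within 0.5 of each other in 470 members. AS1 and AS2 share their Ctr arrays, so that this closeness is no independent support. In 538 members the values relative to the gene on the 4 AS arrays all lay below those on both Ctr arrays, and so did 14.7% of all bright probesets. The probeset's own value, with no regard to the gene, was separated in the same way in 418 members and in 23.3% of bright probesets.

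Just inside the threshold stood SNX7, KIF2A, ZEB1 and SMOX. For SNX7 probeset 2348450 Dev was -1.002 with AS1 and -1.32 with AS2, and for KIF2A probeset 2811680 it was -1.08 with AS1 and -1.002 with AS2. Just outside stood PKMYT1 (-0.999 with AS1 and -1.09 with AS2), NEK10, OSBPL9 and PIK3CD (-0.997 with AS1 and -1.16 with AS2).

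The rule mirrored, with Dev at 1 or higher with both, kept 323 probesets in 247 genes under the same Ctr floors, and 35 genes held probesets of both kinds. The floors favour the falling side, as a probeset that rises can start below 6. With the floors set on the mean of the AS arrays the mirrored rule kept 822.

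The deepest members lost most of their signal. COBLL1, an actin-binding protein of the cordon-bleu kind, had the lowest. Its probeset 2584853 read 5.22 and 4.36 with AS1 and 3.47 and 3.76 with AS2, against 8.11 and 7.74 with Ctr. The gene median had risen by 0.85 with AS1 and 0.62 with AS2, so that Dev was -3.98 with AS1 and -4.92 with AS2. All 4 AS values lay more than 2 below the lower Ctr value.

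In TTLL7, which encodes an enzyme that adds glutamate chains to tubulin, probeset 2420282 stood at 4.35 and 4.62 with AS1 and 4.82 and 4.50 with AS2, against 9.47 and 9.62 with Ctr. The gene median fell by 0.65 with AS1 and 0.67 with AS2. SCN9A encodes a voltage-gated sodium channel of sensory neurons, and its probeset 2585406 gave 3.67 and 2.35 with AS1 and 2.79 and 2.51 with AS2, against 7.28 and 7.75 with Ctr. HISPPD1, now PPIP5K2, makes inositol pyrophosphates. Values of its probeset 2822439 were 5.67 and 4.58 with AS1 and 4.73 and 4.84 with AS2, against 9.34 and 9.76 with Ctr, and no AS value of these genes came near a Ctr value.

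Both DNA damage genes among the 12 lowest had a single member each. RAD17 helps to load the checkpoint clamp at damaged DNA, and probeset 2813539, the 7th of 17 in its gene, gave 5.20 and 3.67 with AS1 and 4.51 and 4.53 with AS2, against 8.02 and 8.19 with Ctr. NBN is a subunit of the complex with MRE11A and RAD50 that senses double-strand breaks. Its probeset 3144006 gave 4.36 and 4.04 with AS1 and 3.67 and 3.97 with AS2, against 7.40 and 7.76 with Ctr. The gene medians changed less, by values, with AS1 and with AS2, of 0.36 and 0.23 in RAD17 and 0.16 and 0.03 in NBN.

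Of the other genes among the 12 lowest, NBEAL1, TMEM87B, WSB1, USPL1 (a SUMO protease), AHI1 (a protein of the ciliary base) and RIPK2 (a kinase of innate immune receptors), mean Dev of the lowest member lay between -3.31 and -2.97. RIPK2 probeset 3106247 read 7.64 and 7.06 with AS1 and 6.20 and 6.90 with AS2, against 8.80 and 8.99 with Ctr, while the gene median rose by 0.97 with AS1 and 1.08 with AS2. TMEM87B went the other way, with a gene median lower by 1.60 with AS1 and 1.69 with AS2. Many such probesets ended dim: in 185 members (33.6%) both AS means were under the floor of 6, against 1.97% of bright probesets.

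**Figure D1:**
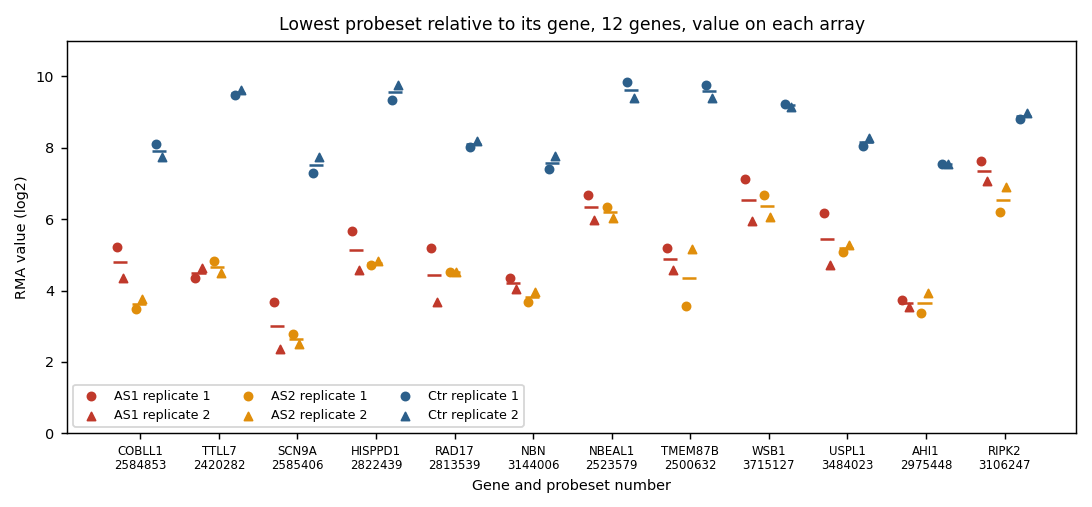
RMA value (log2) of the lowest member in each of the 12 genes with the lowest mean Dev, on each array: AS1 (red), AS2 (orange) and Ctr (blue), circles for replicate 1, triangles for replicate 2, bars for the group means. In each of the 12 probesets the 4 AS values lie below both Ctr values, and in RIPK2 the groups come closest (7.64 with AS1 replicate 1 and 8.80 with Ctr replicate 1).

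Neighbouring probesets fell together in many genes. Probeset numbers follow the order along the chromosome, so that members next to each other by number are neighbours in the gene. There were 66 runs of 2 or more neighbouring members in 61 genes, which held 163 members (29.6%), and 387 members stood alone. Most runs were short: 52 of 2 probesets, 7 of 3, 2 of 4, 1 of 5, 3 of 6 and 1 of 7. Probesets next to each other can lie in 1 exon, and exon borders were not used here, so that a run is not a count of exons.

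The longest run was in PALLD, which encodes palladin, a protein that cross-links actin filaments. Probesets 6 to 12 of 26 were members, with a mean Dev of -1.70, and the gene median changed by only -0.09 with AS1 and -0.04 with AS2. Over the run the average was 6.17 with AS1 and 6.39 with AS2, against 8.04 with Ctr. The 14 other bright probesets of PALLD that were not members had a median Dev of 0.03, between -0.26 and 0.22, and no value between them and the run. Within it the lowest was probeset 2751118, at 5.65 and 5.06 with AS1 and 5.17 and 6.34 with AS2, against 7.83 and 8.21 with Ctr. The AS2 arrays were far apart on probeset 2751117, at 3.84 and 6.69, against 7.42 and 7.78 with Ctr. The Ctr arrays were apart by more than 1 on probeset 2751122, at 7.11 and 8.46, where the AS arrays read 5.31 to 6.64.

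WSB1, the substrate-binding part of a ubiquitin ligase, had the deepest of the 4 runs of 6 or more. Members 8 to 13 of its 17 probesets had a mean Dev of -2.67, averaging 6.90 with AS1 and 6.56 with AS2, against 9.03 with Ctr, while the gene median rose by 0.39 with AS1 and 0.36 with AS2. Probeset 3715130 read 5.68 and 4.82 with AS1 and 4.43 and 4.56 with AS2, against 7.50 and 7.54 with Ctr. AS1 replicate 1 was the highest of the 4 AS arrays on all 6 probesets of the run, and on none did it reach a Ctr value. The probeset before the run had a mean Dev of -1.20 and missed the rule, and the one after it had 0.26.

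DMXL1, a large protein with WD repeats that takes part in assembling the vacuolar proton pump, held the most members, 8 of its 55 probesets. Of these, 6 formed a run at places 11 to 16 with a mean Dev of -1.87, averaging 5.54 with AS1 and 5.99 with AS2, against 8.23 with Ctr. Probeset 2825554 was the brightest of them, at 7.44 and 7.04 with AS1 and 8.13 and 7.97 with AS2, against 10.26 and 9.99 with Ctr. The gene median was itself lower, by 0.76 with AS1 and 0.44 with AS2.

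NLRP1 forms an inflammasome. Its run took the first 6 of 35 probeset numbers, with its strand not used here. The run averaged 9.49 with AS1 and 9.21 with AS2, against 11.1 with Ctr, and probeset 3742788 gave 10.10 and 9.39 with AS1 and 9.81 and 8.94 with AS2, against 11.55 and 11.69 with Ctr. The gene median changed by 0.08 with AS1 and -0.19 with AS2. The 27 bright probesets outside the run had a median Dev of 0.12.

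TTLL7 had members at its 5′ end, where 7 of the first 8 probesets met the rule in runs of 4 and 3. The probeset between the runs also fell, with a mean Dev of -1.34, but its Ctr mean of 5.14 was under the floor. The 14 other bright probesets had a Dev between -0.34 and 0.31. SCN9A had its lowest members at the other end, in a run of the last 3 of 27 probesets, and 4 more in pairs further in. The 4 in pairs were shallower, and probeset 2585411 gave 8.55 and 8.60 with AS1 and 8.87 and 9.37 with AS2, against 10.71 and 10.65 with Ctr.

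Among the remaining long runs, 5 members in PHTF2 (places 19 to 23 of 25) had a mean Dev of -1.73, 4 in ELTD1, now ADGRL4, an adhesion receptor, one of -1.67, and 3 in COBLL1 (places 19 to 21 of 27) one of -3.93. Runs of 3 were also found in SULF1, which trims sulfate from heparan sulfate, SPG11 and THOC6, a subunit of an mRNA export complex, the 3 named after their values were seen. ATR, the kinase that answers to stalled replication, held 7 members of 58 probesets, of which only 2 were neighbours. The gene median of ATR fell by 1.41 with AS1 and 0.28 with AS2, and its members had a mean Dev between -1.36 and -1.18. On probeset 2698928 the values were 6.77 and 6.76 with AS1 and 7.64 and 7.83 with AS2, against 9.44 and 9.37 with Ctr. Its own fall was thus larger with AS1, while Dev was -1.23 with AS1 and -1.38 with AS2.

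The same Dev arose in different ways. In 360 members (65.5%) the probeset itself fell by 1 or more with both oligonucleotides, against 2.81% of bright probesets, in 40 it rose with both, and 150 lay between. The genes were split by their median: it rose by 0.5 or more with both in 119 genes, fell by 0.5 or more with both in 76, and did neither in 184. These are 31.4%, 20.1% and 48.5% of the member genes, against 7.85%, 6.87% and 85.3% of all 10089 genes with a bright probeset. In the genes with little change, 227 of 273 members had fallen by 1 or more themselves. In the fallen genes all 125 had, with a median own change of -2.62. That all 125 had follows from the rule and the split, and they are part of the 360. In the risen genes 8 of 152 had, 40 had risen, and the median own change was -0.12.

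The level of a gene was also taken over its probesets that were not members. On it limma called 124 of the 379 genes higher with both oligonucleotides (32.7%) and 86 lower (22.7%). Of the 10089 genes with a bright probeset 10.9% and 8.78% were called, and of all 13890 genes 9.58% and 6.9%. The rule used the same contrasts, so nothing is read from that difference. Within the split, 1.53% of bright probesets in risen genes were members, 1.15% in fallen genes and 0.239% in the others.

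**Figure D2:**
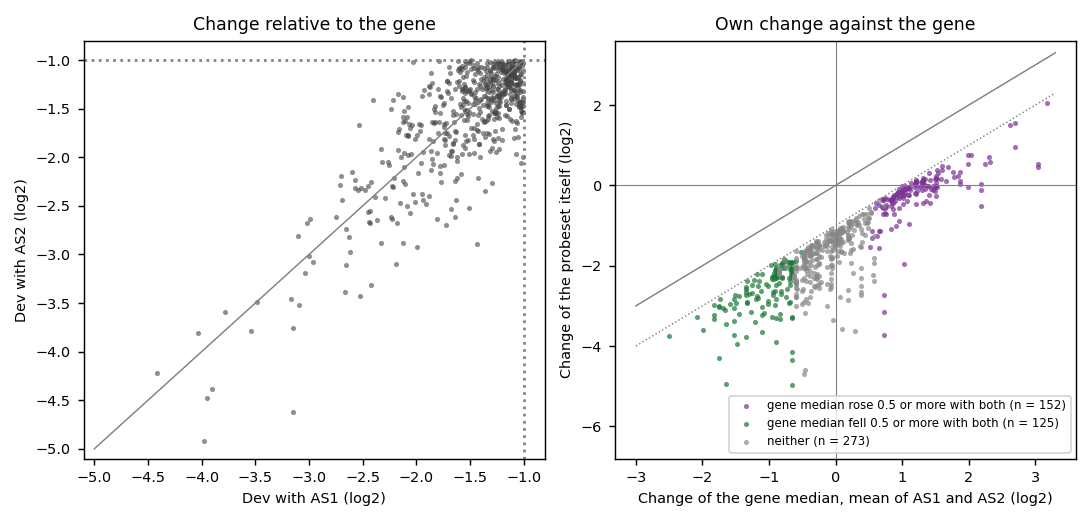
Left, Dev with AS2 against Dev with AS1 (log2) for the 550 members, with dotted lines at the threshold of -1 and the line of equality. Right, the change of the probeset itself against the change of its gene median (log2, mean of AS1 and AS2), coloured by what the gene did, with the line of equality and a dotted line 1 below it. Members of the risen genes lie near an own change of 0, and those of the other genes lie mostly below -1.

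Position along the gene was not part of the rule. The strand was known for 322 of the 379 genes, with 471 members. Genes of known strand were cut by place into 5 bins of equal width from the 5′ to the 3′ end. The bins do not hold equal numbers: the first held 26049 bright probesets and the others 21290 to 21725. Members lay towards the 5′ end and numbered 176, 93, 87, 65 and 50 by bin. The first bin held 37.4% of members and 23.2% of bright probesets, and the last 10.6% and 19.2%. The first probeset of a gene was a member 66 times, which is 14.01% of placed members where first probesets make up 6.55% of bright ones. The last was one 16 times (3.40%, against 4.81%). Median places were 0.308 on the plus and 0.333 on the minus strand on a scale from 0 at the 5′ end to 1, against 0.5 for bright probesets.

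The lean to the 5′ end was steepest in the genes that rose. Of 134 placed members in risen genes, 88 (65.7%, 95% Wilson interval 57.3 to 73.2%) lay in the first bin, where 23.3% of the bright probesets of such genes lie. In fallen genes it was 30.7% against 22.7%, and in genes with little change 23.8% against 23.2%. Put as a rate, 4.40% of bright probesets in the first bin of risen genes were members and between 0.612% and 0.789% in the other bins. In fallen genes the rate was 1.65%, 1.65% and 1.62% in the first 3 bins, and 0.386% in the last. The interval covers counting error only, and members of a gene are not independent.

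The mirrored probesets showed the reverse. In fallen genes 2.64% of bright probesets of the first bin had a Dev of 1 or higher with both, against 0.392% to 0.771% in the other bins, and 30 of the 99 mirrored probesets there were the first of their gene. Over all first probesets, members or not, the median Dev was -0.49 in 586 risen genes, 0.22 in 534 fallen genes and -0.08 in the 6233 others. At the median, first probesets thus moved less than their gene in both directions.

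**Figure D3:**
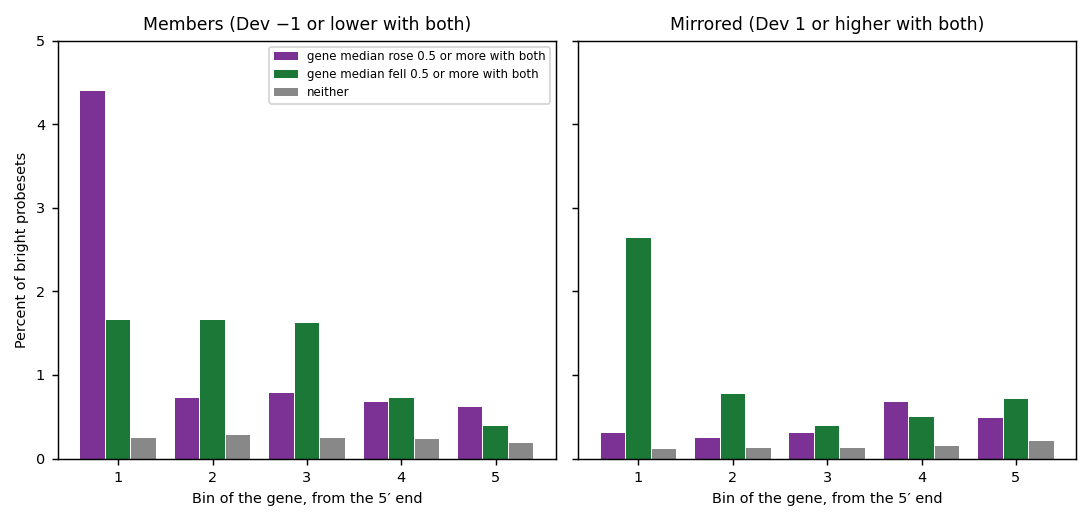
Percent of bright probesets, by bin of the gene (5 bins of equal width from the 5′ end), that are members (left) and that meet the mirrored rule (right). Genes are those whose median rose by 0.5 or more with both (purple), fell by 0.5 or more with both (green) or did neither (grey). Members reach 4.40% in the first bin of risen genes, and mirrored probesets 2.64% in the first bin of fallen genes.

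The 88 members in the first bin of risen genes came from 72 genes whose median rise was 1.19. Their own change had a median of -0.10, and in 64 it was within 0.5 of 0 with both oligonucleotides. Only 2 had fallen by 1 or more. TRIB3, a pseudokinase induced by the ATF4 branch of the stress response, is an example: its gene median rose by 1.79 with AS1 and 1.94 with AS2, and the first 3 of 11 probesets did not follow. Probeset 3873168 read 7.65 and 8.06 with AS1 and 7.83 and 7.61 with AS2, against 7.88 and 7.65 with Ctr. Groups overlapped fully there.

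ERN1, the kinase and RNase that senses unfolded proteins, rose by 1.28 with AS1 and 1.504 with AS2. Its probeset 3766705 near the 5′ end stayed at 8.89 and 8.86 with AS1 and 9.23 and 8.82 with AS2, against 9.13 and 8.82 with Ctr. Named after their values were seen, DOCK9, an activator of the GTPase CDC42, SCUBE2, a secreted protein, and PCF11, a factor for cleavage of RNA at the 3′ end, had the same form. DOCK9 probeset 3522580, the most 5′ of 51, was at 8.18 and 8.14 with AS1 and 8.37 and 8.16 with AS2, against 8.47 and 8.18 with Ctr, while its gene rose by 1.93 with AS1 and 2.44 with AS2. SCUBE2 probeset 3362244 was very bright, with 12.61 and 12.83 with AS1 and 12.89 and 12.78 with AS2, against 12.76 and 12.47 with Ctr.

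MDM2, the ubiquitin ligase for p53 and the only member gene among the p53 targets listed, rose by 0.95 with AS1 and 0.91 with AS2. Its first probeset, 3421304, gave 8.49 and 8.86 with AS1 and 8.82 and 8.56 with AS2, against 8.97 and 8.77 with Ctr. MDM2 is known to be transcribed from an upstream promoter and from one in its first intron that p53 binds, and the RefSeq table (GRCh38.p14) lists 4 starts whose outermost lie 852 bases apart. DOCK9 has 2, 108630 bases apart. The 100 bases before the most upstream and the most downstream start of both genes are shown as the annotated 5′ context of these genes, and which start was read was not tested. CG dinucleotides are in capitals. The probesets were not placed relative to the starts, as no source used here names the build of the array annotation.

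MDM2 upstream start, plus strand, chr12:68808072-68808171: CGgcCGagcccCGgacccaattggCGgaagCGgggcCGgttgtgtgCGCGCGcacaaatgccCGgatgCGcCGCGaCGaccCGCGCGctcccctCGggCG
MDM2 downstream start, plus strand, chr12:68808924-68809023: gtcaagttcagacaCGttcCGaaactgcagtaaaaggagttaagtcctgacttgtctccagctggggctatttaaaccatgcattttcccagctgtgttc
DOCK9 upstream start, minus strand, chr13:99086695-99086794: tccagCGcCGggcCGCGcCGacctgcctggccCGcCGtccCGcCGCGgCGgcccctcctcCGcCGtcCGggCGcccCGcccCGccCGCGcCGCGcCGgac
DOCK9 downstream start, minus strand, chr13:98978065-98978164: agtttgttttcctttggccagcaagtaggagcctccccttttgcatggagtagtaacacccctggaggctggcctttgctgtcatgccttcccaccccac

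The upstream sequences hold 19 and 22 CG dinucleotides, in MDM2 and DOCK9, and the downstream ones 2 and 0. Across the 72 risen genes with a member in the first bin, 13 (18.1%) had annotated starts 500 or more bases apart. This was 22.2% of 594 risen genes without such a member and 21.8% of all 8279 genes compared. GC content of the start windows had a median of 66.8% in the 72 genes and 64.0% in the 594.

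Genes of DNA replication and repair had the highest share of members among the lists. Of 1455 bright probesets in 77 such genes, 27 were members (1.86%, against 0.408% over all), in 13 genes. The gene had fallen in 8 of the 13, among them HELLS, a chromatin remodelling helicase of dividing cells, and FANCI, which acts in the repair of crosslinks. HELLS probeset 3258932 gave 3.75 and 2.53 with AS1 and 2.95 and 3.15 with AS2, against 7.07 and 7.72 with Ctr. In fallen genes of the list 2.57% of bright probesets were members, against 1.15% over all fallen genes. In its genes with little change it was 1.38%, against 0.239%. These shares are a description and the list was chosen with results of these arrays known. With the gene median taken over bright probesets only, 17 of the 27 still met the rule.

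The genes of this paragraph were named after their values were seen, apart from NBN and ATR. They were picked with their members known, so nothing about repair genes as a set is read from them. Over all bright probesets 0.408% were members, in 379 of 10089 genes. All 3 subunits of the complex that binds broken DNA ends held members. Beside NBN, RAD50 had 3, with a mean Dev of -1.54 to -1.23, and MRE11A, which is outside the list, had 2 neighbours. MRE11A probeset 3387060 read 7.40 and 6.62 with AS1 and 6.39 and 6.67 with AS2, against 8.61 and 8.83 with Ctr, and its gene median changed by -0.30 with AS1 and -0.19 with AS2. Of the checkpoint kinases, ATM had 1 member beside the 7 of ATR. ATM probeset 3347715 was at 4.95 and 4.43 with AS1 and 4.50 and 4.25 with AS2, against 7.40 and 7.96 with Ctr, in a gene whose median fell by 0.75 with AS1 and 1.80 with AS2. BRIP1, a helicase that binds BRCA1, held 3 members, of which 2 are its most 5′ probesets. WRN, a RecQ helicase, and POLI, a DNA polymerase that copies past damage, also outside the list, had members with a mean Dev as low as -2.50 and -1.77.

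Among genes of mitosis and G2/M, 12 of 1174 bright probesets were members (1.02%), in 6 genes. All 12 had fallen by 1 or more themselves, which for those in fallen genes follows from the rule and the split. Most of the list's bright probesets, 926, lie in fallen genes, where 9 were members (0.972%, against 1.15% over all fallen genes), and the other 3 were among 248 in genes with little change (1.21%, against 0.239%). SMC2, a subunit of condensin, had a single member, 3182792, at 3.63 and 3.46 with AS1 and 3.48 and 3.27 with AS2, against 5.91 and 6.59 with Ctr. BUB3, a protein of the spindle checkpoint, was not lower as a gene, with a median change of 0.05 with AS1 and -0.07 with AS2, but 2 neighbouring probesets were. Probeset 3268686 gave 8.003 and 7.87 with AS1 and 7.79 and 7.79 with AS2, against 9.35 and 9.44 with Ctr.

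CENPE, the kinesin that holds chromosomes to spindle microtubules, had 4 members among 55 probesets, 34 of which were bright. The gene median fell by 1.54 with AS1 and 1.51 with AS2, and it was taken over all 55, dim ones included. With the median over bright probesets only, 92 of the 125 members in fallen genes still met the rule. In risen genes 123 of 152 did, and 248 of 273 in genes with little change. Member 2780203 of CENPE was among those that no longer met it. Members 2780220 and 2780221 are neighbours in the middle of the gene. The first gave 3.37 and 2.48 with AS1 and 2.60 and 2.61 with AS2, against 6.20 and 6.79 with Ctr, and the second 4.78 and 3.80 with AS1 and 4.77 and 4.69 with AS2, against 7.80 and 7.99 with Ctr. CENPE also held 2 mirrored probesets. The other genes whose splicing the study assayed had no member. In MYBL2, which encodes B-MYB, the lowest of 14 bright probesets had a Dev of -0.70 with AS1 and -0.79 with AS2. The highest by mean Dev, its first probeset, had 1.25 with both. Probeset 3886254 had 1.002 with AS1 and 1.48 with AS2, and both of these probesets met the mirrored rule. In DICER1 the lowest of 36 had -0.57 with AS1 and -0.67 with AS2. No probeset of CTAGE5 passed the brightness floors for the gene.

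Of the other lists, that of stress response had 5 members in TRIB3 and ERN1 (1.17% of 429, against 0.408% over all), all in risen genes. In risen genes of this list 2.55% of 196 bright probesets were members, against 1.53% over all risen genes. Splicing factors and RNA helicases had 6 (0.457%, near the 0.408% over all). They were led by HNRPDL, now HNRNPDL, an RNA-binding protein that itself is spliced in several forms. Its probeset 2775582 read 8.18 and 7.24 with AS1 and 7.61 and 8.55 with AS2, against 9.74 and 10.42 with Ctr. MBNL3, a splicing regulator of the muscleblind family, and SFRS2IP, now SCAF11, had 1 each, both with a mean Dev of -1.14. Chromatin genes had 11 (0.543%), among them CHD9, CHD2 and PHF3. CHD2, a remodelling ATPase, was a risen gene, by 1.41 with both, whose probesets 38 and 40 of 41 did not follow.

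Actin and adhesion genes had 9 members (0.427%), 7 of them in PALLD and 1 each in UTRN, the utrophin gene, and ITGA2, an integrin for collagen. Extracellular matrix genes had 3 of 2111 (0.142%), in ELN, MMP3 and TNC. MMP3, a matrix protease, shows a member that rose: probeset 3388857 was at 11.0002 and 10.76 with AS1 and 11.16 and 10.84 with AS2, against 9.66 and 9.23 with Ctr, while the gene rose by 2.65 with AS1 and 2.59 with AS2. Collagens (970 bright probesets), mitochondrial proteins (802), RNA helicases (764) and ribosomal proteins (127) had none. Solute carriers had 21 members in 15 genes (0.818%) and kinesins and dyneins 7 (0.922%).

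**Figure D4:**
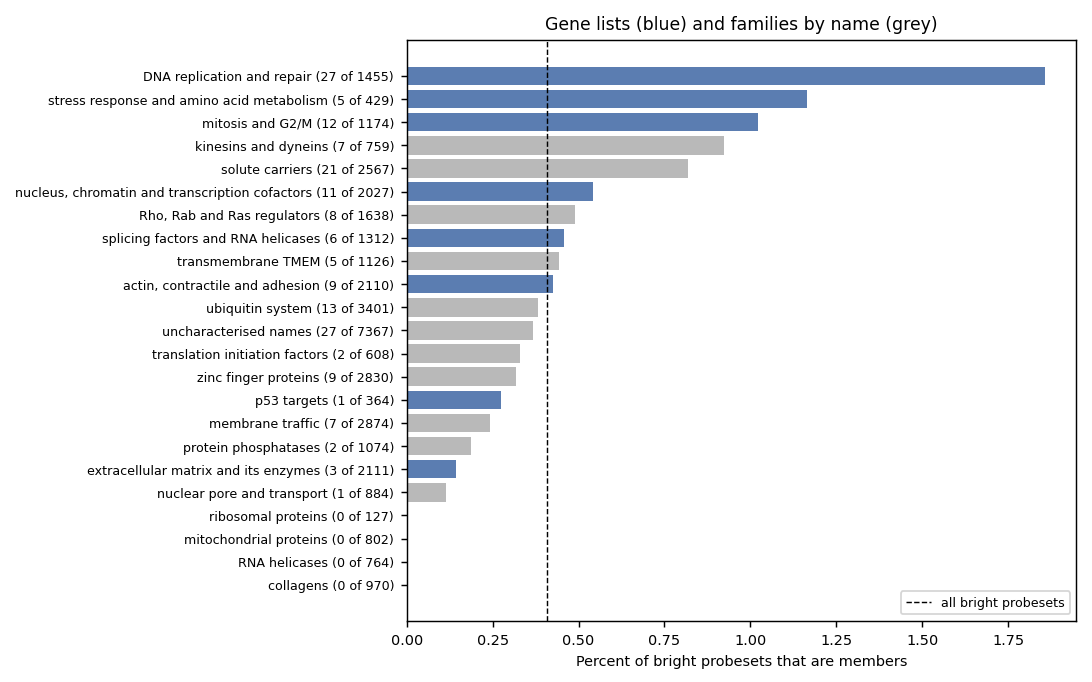
Percent of bright probesets that are members in gene lists (blue) and in families taken from gene names (grey), with the counts beside each name and a dashed line at 0.408% for all bright probesets. DNA replication and repair is highest at 1.86%, and collagens and 3 other families are at 0.

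Members were dimmer than bright probesets as a whole, with a median Ctr mean of 8.04 against 8.53. The share of members was 0.593% of probesets with a Ctr mean of 6 to 7 and 0.184% of those at 10 or more. The spread within groups was larger as well, with a median SD of 0.28 against 0.16. The Ctr arrays lay 1 or more apart relative to the gene in 13 members (2.36%, against 0.833%). AS1 replicate 1 was above AS1 replicate 2 in 57.8% of members and in 46.8% of bright probesets, and AS2 replicate 1 above AS2 replicate 2 in 63.1% and 52.0%. Genes with members had more probesets, with a median of 19 against 13.

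The rule was also applied to 1 array of each group and read on the arrays it had not used. Chosen on the arrays numbered 2, 815 probesets had a median Dev of -1.40 there and of -0.93 on the arrays numbered 1. On these, 282 (34.6%) again had a Dev of -1 or lower with both, against 0.407% of all 134547 bright probesets, and 701 (86.0%) were below 0 with both, against 34.9%. Chosen on the arrays numbered 1, 629 probesets had a median of -1.07 on the arrays numbered 2, with 279 (44.4%) at -1 or lower with both, against 0.502%. Of the 629, 558 (88.7%) were below 0 with both, against 36.9%. In each of these readings AS1 and AS2 share 1 Ctr array, so that "with both" is no independent support. The bright probesets were not matched to the chosen ones for brightness or spread. The samples of a group may be technical replicates, and the recurrence describes these arrays only. It is no test of the members, whose rule used all arrays.

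AS1 and AS2 were set against each other with limma on the value relative to the gene. The rule did not use this contrast, except that Dev must lie at -1 or below with both. The fitted value is not Dev, as the gene median was subtracted on each array. For OFD1 probeset 3969475 it was -0.95 with AS1. The difference AS1 minus AS2 over the members ran between -1.06 and 1.70 with a median of 0.04 and a median SE of 0.24. No member was called at an adjusted p under 0.05, and of all 209621 probesets 0 were (0%). At an unadjusted p under 0.05 there were 48 members (8.73%), against 11853 of all probesets (5.65%). COBLL1 probeset 2584854 had the smallest p. It gave 5.003 and 4.51 with AS1 and 3.001 and 3.10 with AS2. Relative to the gene the difference was 1.70 ± 0.16 (SE), with a p of 9.44e-05 and an adjusted p of 0.877 in limma. CBLB, a ubiquitin ligase of T cell signalling, followed with 1.13 ± 0.15, then DNAH5, YTHDC2 and OFD1 with 1.06, 0.84 and 0.63, all lower with AS2 and all with an adjusted p of 0.877.

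On the contrasts that the rule used, limma called no probeset lower relative to its gene with AS1, AS2 or both (0 of 209621, 0%). At an unadjusted p under 0.05 with both there were 7305 probesets (3.48%), of which 487 were members. A probeset that is itself the median of its gene has a value of exactly 0 on an array. With the median taken over the other probesets of the gene, a setting chosen after the data were seen, 90 probesets were called lower with AS1 (0.0429%), 253 with AS2 (0.121%) and 75 with both (0.0358%), of which 57, 128 and 54 were members, and 80 were called higher with both (0.0382%). With the gene mean, 168 were called lower with AS1 (0.0801%), 327 with AS2 (0.156%) and 132 with both (0.063%), and 84 of the last were members. Members were chosen on these same contrasts and arrays, so nothing is read from their part in the calls.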

How the data were processed

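RNA of WI38 cells was hybridised to Affymetrix exon arrays, 6 in all. The authors summarised probes by RMA with Partek and deposited log2 values per probeset, which were used as deposited. No source used here names versions, genome build or annotation release. Precision is limited by the number of arrays. Symbols come from the GEO platform and can be old. Of the probesets, 2335 carry several symbols and 13364 none and were left out. For 338 member genes the symbol is current, 40 matched as a synonym and 1 did not match. Strand, current names and the bases before gene starts come from RefSeq (GRCh38.p14). Probeset order was oriented by strand after checking that numbers follow the chromosome on both strands.

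Values relative to the gene (probeset minus gene median on the same array) and gene means were fitted in limma 3.58.1 (R 4.3.3) to the 3 groups in one fit and adjusted by Benjamini-Hochberg over all 209621 probesets or 13890 genes. The code was tested on simulated data. Other steps used Python 3.11.15 with pandas 2.3.3. The members, lists and rules were chosen with earlier results of these data known. Named genes were MALAT1, the 12 with the lowest members, the 10 with the longest runs, the 8 with the most members, 4 on either side of the threshold, up to 3 per list, the 5 with the smallest p between AS1 and AS2, and 4 genes the study assayed. Those said to be named after their values were seen fall outside this rule. Alternatives were the centre of the gene, the threshold, the floors, the number of probesets per gene, normalization, limma's options, a block for the replicate number, and each array left out.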

Additional observations from a re-analysis of the deposited data

How the results depend on the processing

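A stricter Dev threshold of -1.5 kept 165 probesets in 118 genes with 21 runs of 2 or more, 49.3% of placed members in the first 2 of 5 bins of their gene (57.1% with -1) and 50% of those in risen genes in the first bin. A Ctr floor of 7 kept 354 probesets in 243 genes. With an array or all arrays of one number left out there were 487 to 815 members in 337 to 562 genes with 56 to 79 runs, 52.7 to 62.0% in the first 2 bins and 58.0 to 69.2% of those of risen genes in the first bin. The highest share, 62.0%, was without Ctr replicate 2. Gene mean, median of bright probesets, median polish, quantile normalization again, a floor on all arrays and at least 10 probesets per gene kept between 472 and 544 members, of which 407 to 537 were among the 550. None of 552 alternative values of 46 named members turned its sign, and 13 were above -1, among them those of MMP3 (-0.87 without Ctr replicate 2), TNC and SMOX.

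An ANOVA without moderation, with thresholds other than those of the study, called 2, 3 and 2 probesets lower with AS1, with AS2 and with both. It also called 2 between AS1 and AS2. Probesets called lower numbered 168, 327 and 132 with the gene mean, in the same order. They numbered 90, 253 and 75 with the median of the other probesets (chosen after seeing the data). With a mean of 6 or more over all arrays they numbered 12, 97 and 11. The trend and robust options called 137 with AS2 and 0 with AS1. All were 0 with each array left out, with quantile normalization and with only the groups compared. The cause of these differences was not tested. No setting called a member between AS1 and AS2. No label says whether replicate numbers pair the samples. Deviations of same-numbered arrays, relative to the gene, correlated at -0.11 (AS1 and AS2), -0.19 (AS1 and Ctr) and 0.15 (AS2 and Ctr). On the values themselves the correlations were -0.19, -0.30 and 0.22 in the same order. With 2 arrays per group these cannot settle whether the samples were paired. With the replicate number as a block 0 probesets were called.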
